A study of Homo sapiens with 17 samples.

Results

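RNA of UTX knockout neurons whose cultures held little collagen transcript was compared with RNA of wild type neurons. Of the 5 KO libraries, the 2 in which COL1A1, a collagen made in quantity by fibroblasts, stayed under 1000 CPM (counts scaled to the column sum) were kept, and both came from line KO1 (replicates 1 and 3). They were set against all 3 WT libraries, so that 5 of the 8 RNA libraries of the series entered the comparison. COL1A1 chose the libraries and is therefore only described. It stood at 294.6 and 278.8 CPM in KO1 replicates 1 and 3, at 129.5, 8.03 and 415.5 in the WT libraries, and at 8859 in the next KO library above the threshold.

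The study differentiated the established human embryonic stem cell line H9 into neurons for 40 days, in UTX-/- and Wild type form. RNA-seq was done on 5 KO libraries of lines KO1 and KO2 and 3 WT libraries, and H3K27me3 and H3K36me3 were mapped by ChIP-seq. Every line received the same neuronal medium, which contained BDNF, GDNF and cAMP. Both KO libraries compared here are of 1 knockout line, so a property of that line and an effect of the knockout cannot be told apart, and no KO2 library is represented.

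UTX, encoded by KDM6A on the X chromosome, is a demethylase of histone H3 that acts on lysine 27. The trimethylated form, H3K27me3, is laid down by Polycomb repressive complex 2 and marks silenced developmental genes, HOX clusters among them. UTX is also a subunit of COMPASS-type complexes that act at enhancers, and it is known for a role in opening developmental genes as cells differentiate.

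The whole-gene count of KDM6A did not separate the genotypes. It stood at 40.7 and 34.1 CPM (here scaled by the trimmed mean of M-values over all 8 RNA libraries) in the KO libraries and at 36.1, 36 and 35.2 CPM in the WT libraries. The groups overlapped, and the DESeq2 log2 fold change was 0.06 ± 0.17 (SE, adjusted p = 0.996). Because a small edit can leave the gene's total unaltered, these values check neither the genotype nor the loss of the protein.

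Neuronal transcripts in the KO libraries lay within the WT range. The mean log2 CPM of 25 pan-neuronal markers was 7.09 and 7.21 in the KO libraries and 6.90, 7.57 and 6.83 in the WT libraries. DPYSL3, a growth cone protein and the most abundant of these markers, had 1062 and 952 CPM in KO and 1025, 1316 and 740 CPM in WT. None of the 25 was called by DESeq2, against 1.43% of all genes. edgeR called 0 genes in all, so its lack of calls does not bear on this list. The 22 mesenchymal markers, which include the gene used for the choice, averaged 5.48 and 5.39 in KO and 4.87, 2.87 and 5.77 in WT, and summed to 2958 and 2524 CPM in KO and to 1949, 898 and 3278 CPM in WT. SPARC, a matrix protein and the most abundant member in these 5 libraries, had 774 and 536 CPM in KO and 445, 258 and 381 CPM in WT. In the 3 KO libraries left out of the comparison the same list summed to between 37540 and 91520 CPM. TAGLN, an actin-binding protein of smooth muscle and fibroblasts, had 312 and 51.1 CPM in KO and 9.82, 5.98 and 19.1 CPM in WT. Its DESeq2 call was lost without WT replicate 1 or WT replicate 2. Of the 22 markers 11 had a log2 fold change above 0 and 11 below, with a median of 0.09. In 5 of them both KO libraries lay above all WT libraries and in 0 below, against 13.4% and 12.6% of all genes. At an unadjusted edgeR p below 0.05, 5 were higher and 0 lower, against 4.47% and 3.82% of all genes. In bulk RNA, fewer cells of a type and less RNA per cell cannot be told apart.

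Mean levels of neural progenitor markers also lay within the WT range, and those of proliferation markers overlapped WT. The 25 progenitor markers averaged 6.61 and 6.57 in KO and 6.55, 6.64 and 6.88 in WT. DESeq2 called 2 of the 25 lower, CRB1 and SOX3, and 0 higher, against 0.55% and 0.877% of all genes. VIM, an intermediate filament of progenitors, had 2396 and 1957 CPM in KO and 2402, 1805 and 2011 CPM in WT. The 24 proliferation genes averaged 6.76 and 6.55 in KO and 6.87, 6.72 and 6.92 in WT, and TOP2A, the topoisomerase of dividing cells, had 472 and 459 CPM in KO and 544, 485 and 609 CPM in WT. DESeq2 called 0 of the 24, against 1.43% of all genes. At an unadjusted p below 0.05 edgeR had 1, a lower one, against 3.82% of all genes. Of the 24, 21 had a log2 fold change below 0 (median -0.20), and in 9 both KO libraries lay below all WT libraries, against 12.6% of all genes.

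**Figure D1:**
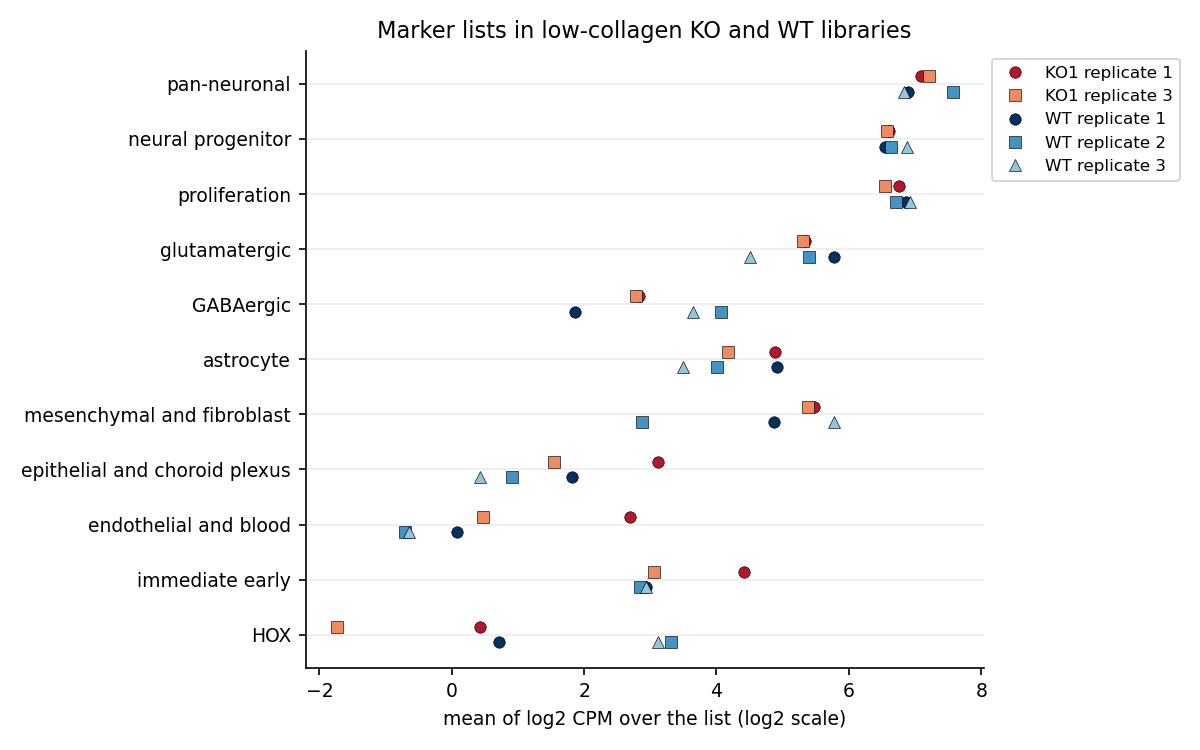
Mean log2 CPM of 11 marker lists (x axis, log2 scale) in the 2 low-collagen KO libraries (red shades, upper points) and the 3 WT libraries (blue shades, lower points). Pan-neuronal, progenitor and proliferation lists lie close together, while KO1 replicate 1 stands to the right in the epithelial, endothelial and immediate early lists and both KO libraries stand to the left in the HOX list.

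How many genes differed depended on the test. At a false discovery rate below 0.05, 0 of 18755 genes (0%) passed the quasi-likelihood F-test of edgeR, although 1555 (8.29%) had an unadjusted p below 0.05, 838 of them higher (4.47%) and 717 lower (3.82%) in KO. Without a filter on low counts, edgeR called 393 higher and 269 lower, and 626 of those 662 genes had also been tested in the filtered fit. DESeq2 called 262 of 18360 genes (1.43%) at an adjusted p below 0.05, of which 161 (0.877%) were higher and 101 (0.55%) lower in KO, and the unfiltered edgeR fit called 232 of the 262. limma-voom called 0. The calls below are DESeq2's, and the words higher and lower rest on them only where an adjusted p is given. Without KO1 replicate 1, DESeq2 called 19 genes higher and 48 lower, 15 and 24 of them among the original calls. With 2 libraries against 3, an exact permutation test of a single gene has 10 arrangements and cannot go below p = 0.1 on one side.

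A set of 33 genes (13 higher, 20 lower) kept their DESeq2 call when each of the 5 libraries was left out in turn. They were picked out by that behaviour after their values were seen, and 4 of them carry clone names only. Most of the others are described by what they do, since no list was fixed for them.

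A pair of paralogs moved in opposite directions. GAREM1 and GAREM2 are adaptor proteins that pass signals from growth factor receptors to the ERK pathway, and lie on chromosome 18 at 32263522 to 32470882 and on chromosome 2 at 26173088 to 26204304 (GRCh38.p14). GAREM1 had 21.6 and 21.0 CPM in KO and 7.38, 8.39 and 7.83 CPM in WT. GAREM2 had 50.3 and 56.4 CPM in KO and 109, 99.6 and 103 CPM in WT. Neither gene overlapped between groups, but the rule that named them required this. Over all genes 13.4% had KO above WT and 12.6% KO below WT. GAREM1 was higher with a log2 fold change of 1.43 ± 0.20 (SE, DESeq2 adjusted p = 1.1e-09) and GAREM2 lower with -0.96 ± 0.14 (SE, DESeq2 adjusted p = 1.55e-08). The 3 KO libraries left out of the comparison had 25.2, 21.0 and 19.6 CPM of GAREM1 and 33.7, 21.4 and 45.0 CPM of GAREM2.

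Several of the higher genes are regulators of cell identity. GMNC, geminin coiled-coil domain protein, which starts the multiciliated cell programme, had 8.73 and 9.61 CPM in KO and 1.34, 0.83 and 0.64 CPM in WT (log2 fold change 3.28 ± 0.40, SE, DESeq2 adjusted p = 1.21e-12). MAF, a bZIP transcription factor, had 98.1 and 116 CPM in KO and 38.5, 48.9 and 42.7 CPM in WT (1.30 ± 0.19, adjusted p = 7.73e-09). OTX2, a homeodomain factor of forebrain, midbrain and choroid plexus, had 161 and 106 CPM in KO and 40.9, 47.2 and 54.4 CPM in WT (1.49 ± 0.25, adjusted p = 1.23e-06). All 3 had both KO libraries above all WT libraries, which the rule that named them required and which held for 13.4% of all genes.

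The other higher genes act in signalling, the cell cycle and the cell surface. RSPO1, a secreted enhancer of WNT signalling, had 72.2 and 74.3 CPM in KO and 39.7, 30.1 and 26.96 CPM in WT (log2 fold change 1.18 ± 0.22, SE, DESeq2 adjusted p = 2.92e-05). CDKN2B, which encodes the cell cycle inhibitor p15, had 22.3 and 5.94 CPM in KO and 1.258, 0.83 and 1.23 CPM in WT (3.68 ± 0.57, adjusted p = 1.92e-07). PCDHGC3, a clustered protocadherin that shares its last exons with its neighbours, had 80.7 and 74.9 CPM in KO and 36.8, 34.5 and 40.1 CPM in WT (1.07 ± 0.15, adjusted p = 4.01e-09). How reads from the shared exons were divided is unknown. GCNT1, a glycosyltransferase, had 49.3 and 46.8 CPM in KO and 21.8, 14.1 and 11.4 CPM in WT (1.61 ± 0.30, adjusted p = 4.03e-05). MYOF and RGS5, a membrane repair protein and a pericyte-expressed regulator of G protein signals, were also called higher in every fit. MYOF had 22.6 and 13.2 CPM in KO, 4.503, 3.75 and 5.09 CPM in WT and between 65.0 and 129 CPM in the 3 high-collagen KO libraries. RGS5 had 67.6 and 25.4 CPM in KO, 5.80, 1.99 and 6.70 CPM in WT and between 160 and 515 CPM in those libraries. The share of their difference that follows the remaining mesenchymal transcript was not tested.

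The lower genes included receptors and WNT and hedgehog pathway proteins. P2RX3, a sensory channel opened by ATP, had 2.32 CPM in both KO libraries and 7.75, 13.1 and 19.6 CPM in WT (log2 fold change -2.53 ± 0.43, SE, DESeq2 adjusted p = 2.65e-06). SFRP1, a secreted WNT antagonist, had 196 and 308 CPM in KO and 585, 605 and 795 CPM in WT (-1.39 ± 0.25, adjusted p = 1.91e-05). Both genes were below every WT library in both KO libraries, as were 12.6% of all genes. GAS1, a co-receptor for sonic hedgehog, had 75.0 and 113 CPM in KO and 216, 253 and 195 CPM in WT (-1.24 ± 0.24, adjusted p = 8.45e-05). EDNRB, the endothelin B receptor, had 22.4 and 20.9 CPM in KO and 55.1, 37.3 and 54.0 CPM in WT (-1.17 ± 0.23, adjusted p = 0.000134).

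Further lower genes had varied known roles. CRB1, a Crumbs polarity protein of neuroepithelium and retina, had 5.70 and 9.41 CPM in KO and 33.7, 25.5 and 28.9 CPM in WT (log2 fold change -1.95 ± 0.28, SE, DESeq2 adjusted p = 4.74e-09). MPPED1, a metallophosphoesterase expressed in fetal brain, had 13.2 and 20.1 CPM in KO and 41.2, 43.0 and 48.7 CPM in WT (-1.41 ± 0.24, adjusted p = 3.44e-06). MLC1, a membrane protein of astrocytes, had 12.6 and 10.99 CPM in KO and 22.8, 33.3 and 27.8 CPM in WT (-1.25 ± 0.24, adjusted p = 0.000132). Of the 12 astrocyte-listed genes 1 was called higher and 0 lower, against 0.877% and 0.55% of all genes, with a median of 0.03. SPINK5, a serine protease inhibitor known from skin, had 0.81 and 1.29 CPM in KO and 12.1, 9.22 and 10.0 CPM in WT (-3.27 ± 0.35, adjusted p = 1.92e-17). TRIM4, a ubiquitin ligase, had 1.31 and 1.21 CPM in KO and 5.72, 5.67 and 4.34 CPM in WT (-2.07 ± 0.36, adjusted p = 8.92e-06). ZNF703, a transcriptional co-repressor, had 33.8 and 35.1 CPM in KO and 60.6, 74.7 and 71.4 CPM in WT (-0.9997 ± 0.17, adjusted p = 5.51e-06). POTEF, FAR2P1, KLF2P1 and PPIEL were called lower too, but they are pseudogenes or members of near-identical families, so their counts are uncertain. On chromosome 2, POTEF lies at 130073535 to 130129222 and FAR2P1 at 130025998 to 130051131, with KLF2P1 (130038018 to 130038622) inside the FAR2P1 span. Whether these neighbours changed separately was not tested.

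In 8 of the genes just described, at least 1 of the 3 left-out KO libraries did not lie on the same side of WT. OTX2 had 13.8, 47.1 and 53.7 CPM there, RSPO1 11.4, 29.9 and 36.3 CPM, GCNT1 7.90, 8.98 and 24.8 CPM and GMNC 1.23, 3.13 and 4.90 CPM. Among the lower genes, SFRP1 had 828, 283 and 525 CPM there, GAS1 395, 110 and 274 CPM, TRIM4 1.79, 5.05 and 5.30 CPM and ZNF703 58.1, 80.6 and 60.5 CPM.

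**Figure D2:**
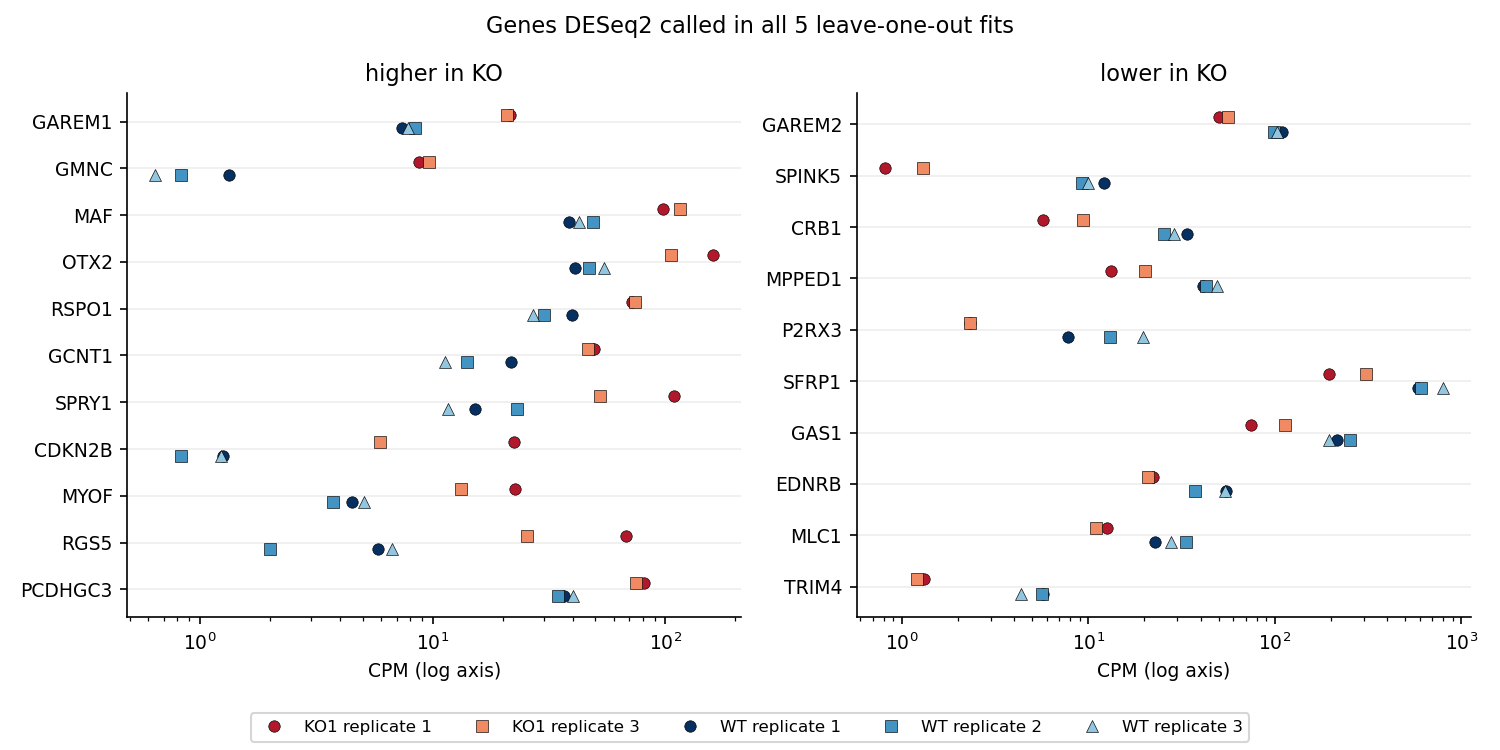
CPM (log axis) of 21 genes that DESeq2 called in every leave-one-out fit, higher in KO on the left and lower in KO on the right, in 2 KO libraries (red shades) and 3 WT libraries (blue shades). In each gene all KO points lie on one side of all WT points, as in 26% of all genes, and many of those plotted were named for it. The least gap between KO replicates is in P2RX3, at 2.32 CPM in both.

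Further genes among the lowest edgeR p-values lost their DESeq2 call without KO1 replicate 1. Among the higher ones, KITLG, the ligand of the KIT receptor, had 71.5 and 51.6 CPM in KO and 28.7, 26.4 and 18.3 CPM in WT (log2 fold change 1.33 ± 0.27, SE, DESeq2 adjusted p = 0.000316). PLTP, RHOU, TMCC3 and CA2 were called higher with log2 fold changes of 0.81, 0.98, 1.20 and 1.23, and TMCC3 lost its call without KO1 replicate 3 as well. Among the lower ones, LSM5, an Sm-like protein of splicing and mRNA decay, had 22.7 and 21.8 CPM in KO and 42.1, 40.3 and 39.1 CPM in WT (-0.87 ± 0.15, adjusted p = 6.88e-06). GRIPAP1, an endosomal protein that moves AMPA receptors, had 85.6 and 96.2 CPM in KO and 148, 165 and 166 CPM in WT (-0.81 ± 0.15, adjusted p = 2.35e-05). MYCN, a progenitor transcription factor, had 68.5 and 73.5 CPM in KO and 113, 125 and 111 CPM in WT (-0.71 ± 0.15, adjusted p = 0.000361).

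HOX genes, which give neurons their position along the hindbrain and spinal cord, were mostly at lower values in KO, though few were called. All 17 HOX genes tested had a log2 fold change below 0, with a median of -3.53, beside a median of 0 over all genes tested. DESeq2 called 4 of them lower and 0 higher, against 0.55% and 0.877% of all genes. In 9 of the 17 both KO libraries lay below all WT libraries, against 12.6% of all genes. The mean log2 CPM of the list was 0.42 and -1.74 in KO and 0.72, 3.31 and 3.12 in WT, so KO1 replicate 1 and WT replicate 1 were close. Without KO1 replicate 1 the median was -7.01.

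HOXB2 was the only HOX gene called in every leave-one-out fit. It had 7.72 and 6.03 CPM in KO and 16.6, 35.2 and 44.9 CPM in WT (log2 fold change -2.23 ± 0.41, SE, DESeq2 adjusted p = 3.07e-05). HOXB3 had 35.1 and 18.1 CPM in KO and 59.9, 140 and 171 CPM in WT (-2.22 ± 0.44, adjusted p = 0.000208), and its call was lost without WT replicate 2 or WT replicate 3. HOXD3 had 0.40 and 0.24 CPM in KO and 2.60, 11.5 and 24.4 CPM in WT (-5.34 ± 1.13, adjusted p = 0.000671). HOXD4 had 0.05 and 0 CPM in KO and 1.095, 4.54 and 20.3 CPM in WT (DESeq2 adjusted p = 0.00527). The calls of HOXD3 and HOXD4 were lost without either KO library. HAGLR, a long noncoding RNA of the HOXD cluster, had 0.15 and 0.06 CPM in KO and 1.54, 3.71 and 9.81 CPM in WT (adjusted p = 6.88e-06). It overlaps HOXD genes, and reads of the strands cannot be told apart where counting ignores strand. In the left-out KO libraries HOXB2 had 5.15, 39.7 and 6.39 CPM, HOXB3 30.4, 215 and 36.6 CPM, HOXD3 5.04, 4.07 and 5.60 CPM, HOXD4 1.74, 0.89 and 6.68 CPM and HAGLR 1.34, 2.64 and 1.88 CPM, in part inside or above the WT range. WT replicates 2 and 3 were the high libraries in each of these 5 genes, and WT replicate 1 lay nearest to KO. Of the 17 HOX genes, 8 had an H3K27me3 peak near the start in both the KO and the WT list and 9 had no promoter entry, so no HOX gene was seen to have a peak in 1 list alone.

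**Figure D3:**
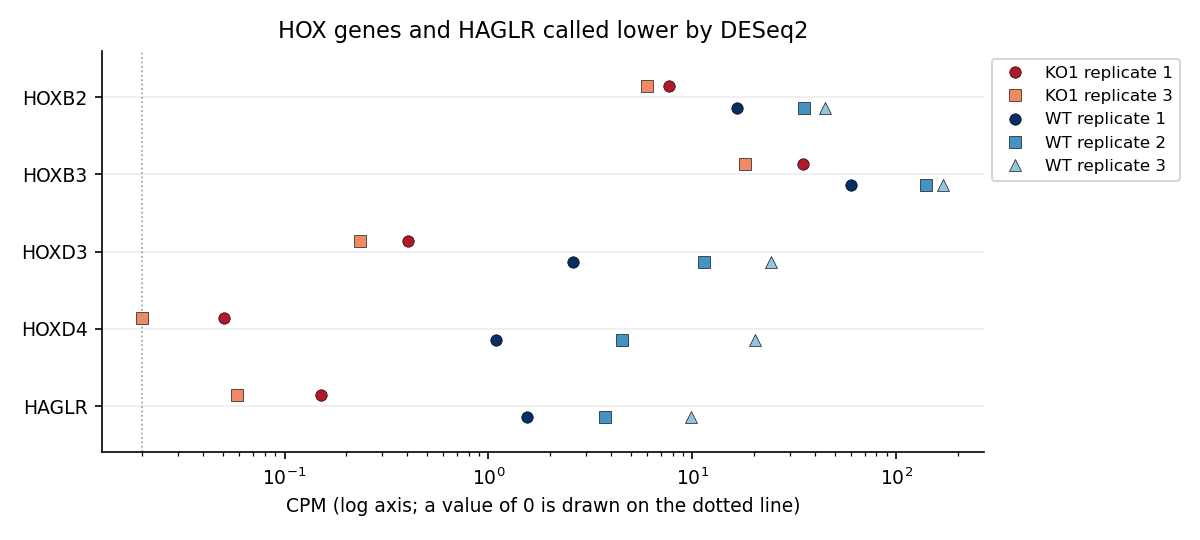
CPM (log axis) of 4 HOX genes and the HOXD-cluster RNA HAGLR in 2 KO libraries (red shades, upper points) and 3 WT libraries (blue shades, lower points). Every KO point lies left of every WT point, and WT replicate 1 lies nearest to KO. The single 0 (HOXD4, KO1 replicate 3) is drawn on the dotted line.

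Other regional genes did not move as one. Among 15 midbrain, hindbrain and spinal factors 0 were called by DESeq2, against 1.43% of all genes. Their median was -0.41, or -3.29 without KO1 replicate 1. GBX2, a factor of the anterior hindbrain, had 32.8 and 0.65 CPM in KO and 8.36, 10.0 and 13.2 CPM in WT, so the KO libraries lay on either side of WT.

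Synaptic and neurotransmitter lists gave few calls, beside 0.877% called higher and 0.55% called lower over all genes. Of 26 synaptic vesicle genes DESeq2 called 1 lower and 0 higher (median -0.05), of 38 postsynaptic genes 1 higher and 1 lower (median -0.11), and of 14 glutamatergic genes 0 in either direction (median 0.03; at an unadjusted edgeR p below 0.05 also 0). SYN3, a synapsin of synaptic vesicles, had 10.5 and 13.7 CPM in KO and 27.6, 29.9 and 21.9 CPM in WT (log2 fold change -1.13 ± 0.24, SE, DESeq2 adjusted p = 0.000992). BDNF, a neurotrophin that was also in the medium as protein, had 13.1 and 7.35 CPM in KO and 1.42, 3.20 and 2.36 CPM in WT (2.13 ± 0.46, adjusted p = 0.000939). Both calls were lost without KO1 replicate 1.

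Ion channel and receptor genes gave single calls, beside 0.877% called higher and 0.55% called lower over all genes. Of 34 voltage-gated channel genes 1 was called, KCNH2, at 30.3 and 34.4 CPM in KO and 47.1, 48.0 and 53.8 CPM in WT (log2 fold change -0.61 ± 0.16, SE, DESeq2 adjusted p = 0.0162), a call lost in each leave-one-out fit. Of 9 P2X and acid-sensing channel genes 2 were called lower, P2RX3 and ASIC1. ASIC1, a proton-gated channel of central neurons, had 33.6 and 29.6 CPM in KO and 53.2, 53.5 and 62.8 CPM in WT (-0.84 ± 0.17, adjusted p = 0.000316), and was lost without either KO library. NGFR, the low-affinity neurotrophin receptor, had 7.72 and 5.76 CPM in KO and 12.1, 15.1 and 28.7 CPM in WT (-1.47 ± 0.41, adjusted p = 0.025), and was lost without either KO library or WT replicate 3. In the left-out KO libraries NGFR had 48.5, 23.1 and 37.4 CPM, inside or above the WT range.

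Members of the adhesion and guidance lists were higher where they were called, while SEMA5B, a semaphorin outside these lists, was called lower. Of 28 cadherins, contactins and protocadherins 3 were called higher and 0 lower, against 0.877% and 0.55% of all genes. Their median was 0.44, and 10 of the 28 had KO above WT, against 13.4% of all genes. CDH6 had 92.9 and 49.1 CPM in KO and 16.8, 21.5 and 27.98 CPM in WT (log2 fold change 1.68 ± 0.34, SE, DESeq2 adjusted p = 0.000207). PCDH7 had 88.5 and 61.0 CPM in KO and 26.1, 37.4 and 22.8 CPM in WT (1.37 ± 0.29, adjusted p = 0.000665). PCDH19, a protocadherin linked to epilepsy, had 233 and 181 CPM in KO and 68.8, 114 and 104 CPM in WT (1.11 ± 0.26, adjusted p = 0.00439). Of 32 axon guidance genes 2 were called higher, against the same 0.877% of all genes. SLIT2, a repellent ligand, had 529 and 303 CPM in KO and 193, 169 and 125 CPM in WT (1.36 ± 0.30, adjusted p = 0.00116). NRP1, a semaphorin receptor, had 129 and 89.0 CPM in KO and 32.3, 58.9 and 31.0 CPM in WT (1.42 ± 0.34, adjusted p = 0.00508). All 5 of these higher calls were lost without KO1 replicate 1.

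In the WNT list, 3 of 30 genes were called higher and 1, SFRP1, lower (median 0.18, or -0.03 without KO1 replicate 3). Over all genes, 0.877% were called higher and 0.55% lower. WNT4, a WNT ligand, had 51.2 and 14.0 CPM in KO and 9.05, 7.05 and 5.15 CPM in WT (log2 fold change 2.201 ± 0.51, SE, DESeq2 adjusted p = 0.00316), a call kept only when KO1 replicate 3 was left out. FZD1, a WNT receptor, had 106 and 77.8 CPM in KO and 47.8, 60.5 and 48.7 CPM in WT (0.81 ± 0.22, adjusted p = 0.0222), and was lost without KO1 replicate 1, WT replicate 1 or WT replicate 3. In the BMP and TGF-beta list 2 of 33 were called higher and 1 lower (median 0.24). BMP7, a BMP ligand, had 90.4 and 67.5 CPM in KO and 53.5, 38.1 and 37.7 CPM in WT (0.87 ± 0.24, adjusted p = 0.0267). ID4, a BMP target that restrains bHLH factors, had 383 and 573 CPM in KO and 932, 863 and 724 CPM in WT (-0.81 ± 0.23, adjusted p = 0.0292). BMP7 lost its call without KO1 replicate 1 or WT replicate 2 or 3, and ID4 without KO1 replicate 1 or WT replicate 1 or 2. SOX3, a progenitor factor, had 115 and 180 CPM in KO and 309, 330 and 448 CPM in WT (-1.29 ± 0.26, adjusted p = 0.000316), a call lost without KO1 replicate 1.

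Genes linked to fibroblast growth factor (FGF) and ERK feedback were gathered into a list after their values were seen, so their counts support nothing by themselves. All 14 had a log2 fold change above 0 (median 1.21), 11 had KO above WT, against 13.4% of all genes, and DESeq2 called 5 higher, against 0.877%. SPRY1, a Sprouty inhibitor of receptor tyrosine kinases and one of the 33 genes that kept their call, had 109 and 52.3 CPM in KO and 15.2, 23.1 and 11.6 CPM in WT (log2 fold change 2.27 ± 0.39, SE, DESeq2 adjusted p = 5.51e-06). SPRY2 had 82.8 and 27.95 CPM in KO and 15.3, 21.6 and 17.4 CPM in WT (1.61 ± 0.43, adjusted p = 0.0155). The ETS factors ETV4 and ETV5 had 51.1 and 24.1 CPM, and 99.8 and 53.2 CPM, in KO, against 11.2, 12.8 and 3.64 CPM, and 21.5, 34.1 and 13.7 CPM, in WT. Their DESeq2 adjusted p-values were 0.0118 and 0.00582. IL17RD, which encodes the FGF antagonist SEF, had 523 and 351 CPM in KO and 258, 165 and 145 CPM in WT (1.21 ± 0.30, adjusted p = 0.00785). The values of SPRY4 were 50.1 and 31.7 CPM in KO and 9.53, 15.9 and 3.38 CPM in WT (adjusted p = 0.231), and those of DUSP6 140 and 76.1 CPM in KO and 35.7, 42.5 and 12.5 CPM in WT (adjusted p = 0.249). SPRY2, ETV4, ETV5 and IL17RD lost their call without KO1 replicate 1, SPRY2 also without WT replicate 3, and ETV4 and ETV5 also without WT replicate 1. FGFR2, an FGF receptor, was called lower at 34.5 and 42.7 CPM in KO and 77.1, 93.9 and 124 CPM in WT (-1.35 ± 0.25, adjusted p = 3.66e-05), also only with KO1 replicate 1. In the left-out KO libraries FGFR2 had 241, 140 and 182 CPM, all above the WT values. The ligand FGF17 had 228 and 13.8 CPM in KO and 4.95, 5.85 and 4.72 CPM in WT (4.55 ± 1.22, adjusted p = 0.0182), and kept its call only without KO1 replicate 3.

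Motile cilia genes and class I antigen presentation genes were also listed after their values were seen. Of 24 cilia genes DESeq2 called 4 higher, GMNC, DNAH7, DNAH9 and CFAP77, against 0.877% of all genes, and 18 had KO above WT, against 13.4%. DNAH7, an axonemal dynein chain, had 14.1 and 14.4 CPM in KO and 7.38, 6.09 and 4.502 CPM in WT (log2 fold change 1.25 ± 0.29, SE, DESeq2 adjusted p = 0.00268). DNAH9, another dynein chain, had 16.5 and 12.8 CPM in KO and 5.92, 5.91 and 2.57 CPM in WT (1.60 ± 0.41, adjusted p = 0.0105). The calls of DNAH7, DNAH9 and CFAP77 were lost without either KO library, and that of CFAP77 also without WT replicate 1 or WT replicate 2. FOXJ1, the factor of motile ciliogenesis, had 37.6 and 31.6 CPM in KO and 26.1, 12.2 and 11.7 CPM in WT, and did not pass (adjusted p = 0.173). Of 14 class I genes DESeq2 called 3 lower, against 0.55% of all genes, and 12 had a log2 fold change below 0. HLA-B had 16.1 and 16.3 CPM in KO and 85.4, 48.8 and 33.4 CPM in WT (-1.79 ± 0.38, adjusted p = 0.000608), and HLA-C 48.4 and 47.9 CPM in KO and 156, 94.4 and 82.4 CPM in WT (-1.20 ± 0.29, adjusted p = 0.00629). These are close paralogs, and their reads may be divided unevenly. The immunoproteasome gene PSMB9 had 0.10 and 0.29 CPM in KO and 7.46, 2.51 and 0.59 CPM in WT (adjusted p = 0.00899), and the class I regulator NLRC5 0.30 and 1.88 CPM in KO and 41.6, 10.9 and 2.14 CPM in WT (adjusted p = 0.205). WT replicate 1 was the highest library in all 4, and without KO1 replicate 1 the calls of HLA-B, HLA-C and PSMB9 were lost, as were HLA-C's without KO1 replicate 3 and PSMB9's without WT replicate 1.

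The KO libraries differed from each other in genes of other cell types. The mean log2 CPM of the 12 epithelial and choroid plexus genes tested was 3.12 and 1.55 in KO and 1.81, 0.91 and 0.43 in WT. All 14 genes of the list summed to 748 and 155 CPM in KO and 139, 97.5 and 77.0 CPM in WT. OTX2 is itself in that list, and it stayed above WT in KO1 replicate 3. TTR, the choroid plexus transthyretin, had 497 and 20.5 CPM in KO and 67.1, 34.5 and 6.54 CPM in WT, and did not pass (DESeq2 adjusted p = 0.652). The median log2 fold change of the list was 1.49, and 0.29 without KO1 replicate 1. CLDN6, an epithelial claudin, had 17.3 and 5.26 CPM in KO and 2.88, 1.31 and 1.72 CPM in WT (adjusted p = 0.00256). The 10 endothelial and blood genes listed summed to 34.3 and 7.26 CPM in KO and 4.87, 4.68 and 4.93 CPM in WT. Only 4 of them were tested, and the median log2 fold change of these was 2.28, or 0.48 without KO1 replicate 1. RUNX1, a blood transcription factor, had 5.20 and 1.09 CPM in KO and 0.61, 0.28 and 0.21 CPM in WT (adjusted p = 0.0251). SNAI2, a neural crest and mesenchymal factor, had 11.1 and 5.38 CPM in KO and 2.72, 0.96 and 2.14 CPM in WT (adjusted p = 0.0116), and the astrocyte-listed CD44, also made by mesenchymal cells, 23.7 and 7.35 CPM in KO and 5.52, 2.44 and 3.00 CPM in WT (adjusted p = 0.0157). KDR, a VEGF receptor, had 18.1 and 1.91 CPM in KO and 0.81, 0.93 and 1.66 CPM in WT (adjusted p = 0.0107).

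The immediate early list had its highest mean in KO1 replicate 1, but single genes differed in this. Of 22 immediate early genes 2 were called higher and 1 lower, against 0.877% and 0.55% of all genes. The list means were 4.42 and 3.05 in KO and 2.94, 2.85 and 2.93 in WT. ATF3, a stress-induced factor, had 45.3 and 18.96 CPM in KO and 12.2, 9.11 and 9.49 CPM in WT (log2 fold change 1.64 ± 0.38, SE, DESeq2 adjusted p = 0.00353). JUND, an AP-1 subunit, had 117 and 99.3 CPM in KO and 155, 160 and 151 CPM in WT (-0.53 ± 0.15, adjusted p = 0.0266). ADM, a hypoxia-induced peptide, had 5.40 and 1.499 CPM in KO and 0.32, 0.72 and 0.75 CPM in WT (adjusted p = 0.0435). Among cell cycle inhibitors and p53 targets, CDKN2A was called higher at 3.28 and 0.85 CPM in KO and 0.20, 0.14 and 0.05 CPM in WT (adjusted p = 0.00698), and MDM2, which degrades p53, at 157 and 163 CPM in KO and 123, 109 and 108 CPM in WT (0.50 ± 0.14, adjusted p = 0.0237). CDKN2A and CDKN2B are neighbours on chromosome 9, at 21967752 to 21995324 and 22002903 to 22009313, and these spans do not overlap. ATF3, CDKN2A, CLDN6 and SNAI2 lost their call without KO1 replicate 1 and in no other leave-one-out fit. CD44 and RUNX1 lost it without KO1 replicate 1, WT replicate 2 or WT replicate 3. ADM and KDR kept it only without KO1 replicate 3, MDM2 only without WT replicate 1, and JUND in no fit. What part these other cell types and the stress genes have in the differences was not tested.

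**Figure D4:**
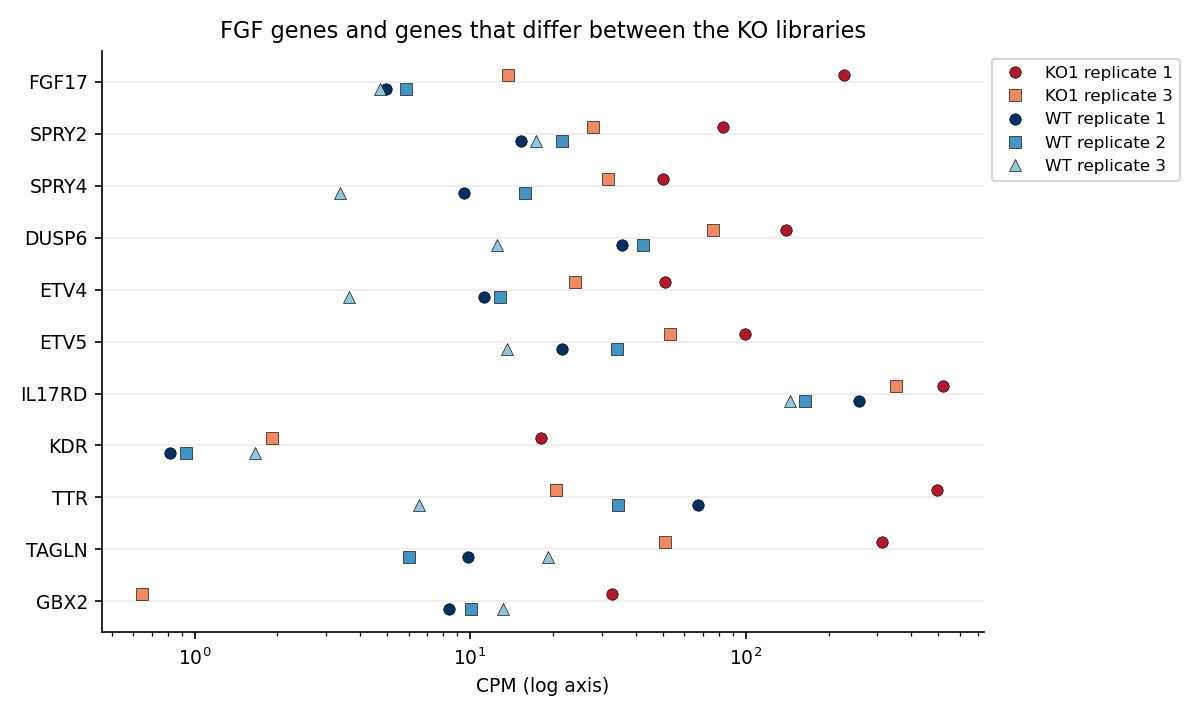
CPM (log axis) of FGF pathway genes and of markers in 2 KO libraries (red shades, upper points) and 3 WT libraries (blue shades, lower points). KO1 replicate 1 lies well right of KO1 replicate 3 in FGF17, KDR, TTR, TAGLN and GBX2, and in GBX2 KO1 replicate 3 lies left of WT.

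H3K27me3 near start sites was read from 1 deposited peak list for KO and 1 for WT. The ChIP samples cover both KO lines, but the list does not say which was used, and nothing ties it to the RNA libraries compared here. The lists hold 10950 peaks from 37.7 M tags in KO and 10340 peaks from 22.4 M tags in WT, so depth differed and no replicate checks a peak seen in 1 list. The heights and folds over control given below are the authors' own values. Of the tested genes, 6378 had no promoter entry and were not placed.

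Genes with a peak in 1 list only differed in which way DESeq2 had called them. Among 272 genes with a peak within 2 kb of the start in the KO list only, 8 (2.94%) were called lower and 1 (0.368%) higher, and the median log2 fold change was -0.08. Among 221 genes with a peak in the WT list only, 7 (3.17%) were called higher and 1 (0.452%) lower, and the median was 0.16. Over all genes tested 0.877% were called higher and 0.55% lower, and over 1397 genes with a peak in both lists 43 (3.08%) were called higher and 21 (1.5%) lower, so the share called higher was close to that of the WT-only class. These counts have no test, since there is 1 list a genotype.

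Promoters of 4 of these genes are printed, from 250 bases before to 50 after the start site, because they show where the peak lies relative to it. The sequences are RefSeq's for GRCh38.p14, written 5′ to 3′ on the gene's strand, and capitals mark bases inside an H3K27me3 peak.
GAREM2: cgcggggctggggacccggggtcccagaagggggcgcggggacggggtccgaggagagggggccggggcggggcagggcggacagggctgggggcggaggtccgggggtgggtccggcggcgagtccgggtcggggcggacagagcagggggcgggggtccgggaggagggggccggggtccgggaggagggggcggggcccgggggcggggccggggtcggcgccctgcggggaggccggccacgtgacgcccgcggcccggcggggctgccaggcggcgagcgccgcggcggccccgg
CNTFR: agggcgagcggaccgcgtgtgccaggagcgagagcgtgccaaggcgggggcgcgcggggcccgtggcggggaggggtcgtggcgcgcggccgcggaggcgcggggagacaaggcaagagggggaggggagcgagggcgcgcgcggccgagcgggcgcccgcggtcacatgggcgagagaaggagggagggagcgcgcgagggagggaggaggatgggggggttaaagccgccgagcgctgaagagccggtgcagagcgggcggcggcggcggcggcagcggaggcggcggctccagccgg
WNT9A: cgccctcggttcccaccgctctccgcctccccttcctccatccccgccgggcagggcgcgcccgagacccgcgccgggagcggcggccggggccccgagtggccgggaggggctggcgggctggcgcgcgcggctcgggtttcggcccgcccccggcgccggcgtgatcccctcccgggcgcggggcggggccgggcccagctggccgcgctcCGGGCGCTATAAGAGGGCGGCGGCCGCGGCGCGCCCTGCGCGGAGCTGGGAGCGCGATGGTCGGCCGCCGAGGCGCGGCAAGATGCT
MYO5C: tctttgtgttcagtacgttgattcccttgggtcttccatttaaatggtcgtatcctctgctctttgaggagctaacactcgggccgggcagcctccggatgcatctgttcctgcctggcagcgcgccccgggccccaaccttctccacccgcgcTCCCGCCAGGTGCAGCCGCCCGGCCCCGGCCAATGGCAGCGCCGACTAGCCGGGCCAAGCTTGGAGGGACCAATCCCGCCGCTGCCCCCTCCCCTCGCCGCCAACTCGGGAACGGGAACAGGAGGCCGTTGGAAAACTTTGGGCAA
GAREM2 (chr2:26172838-26173137, plus strand) and CNTFR (chr9:34589675-34589974, minus strand) had peaks in the KO list only, and none of their 300 bases lay inside one. The KO peak of GAREM2 began 378 bases after the start site, and the nearer of the CNTFR peaks ended 154 bases from it. For CNTFR this holds for the start site used here, 34589724. The gene's span reaches further upstream, to 34590852, which lies inside the other KO peak (34590005 to 34591835). WNT9A (chr1:227947883-227948182, minus strand) and MYO5C (chr15:52295755-52296054, minus strand) had peaks in the WT list only, which covered the start site and 87 and 146 of the 300 bases. The dinucleotide CG occurred 43, 48, 53 and 24 times in these promoters, in the order printed, against a median of 26 over 12377 promoters of tested genes. The medians over the 9 called KO-only and the 8 called WT-only genes were 22 and 26.5, so the first 3 printed lie above the median of their class.

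The genes called lower with a KO-only peak were GAREM2, CSPG5, ASIC1, CNTFR, KCNH2, POU3F4, TMEM145 and SEMA5B. The KO peak downstream of the GAREM2 start had a fold of 5.04 over control. CSPG5, a brain proteoglycan, had 17.4 and 15.9 CPM in KO and 34.1, 30.4 and 29.8 CPM in WT (log2 fold change -0.92 ± 0.17, SE, DESeq2 adjusted p = 6.21e-05), with a KO peak of fold 6.06. CNTFR, the receptor of ciliary neurotrophic factor, had 72.5 and 114 CPM in KO and 160, 177 and 207 CPM in WT (-0.96 ± 0.24, adjusted p = 0.00996), with KO peaks of fold 4.49 and 7.1. POU3F4, a neural POU factor, had 19.9 and 24.6 CPM in KO and 32.6, 62.2 and 88.6 CPM in WT (-1.46 ± 0.39, adjusted p = 0.0165). TMEM145 and SEMA5B had adjusted p-values of 0.0272 and 0.0496. GAREM2 kept its call in all 5 leave-one-out fits. CSPG5, ASIC1 and CNTFR kept it in 3, POU3F4, TMEM145 and SEMA5B in 1, and KCNH2 in 0, and these 7 were all lost without KO1 replicate 1. The one gene called higher with a KO-only peak was DLEC1, at 6.21 and 3.88 CPM in KO and 1.66, 1.03 and 1.93 CPM in WT (DESeq2 adjusted p = 0.0162), and it kept that call in 1 of the 5 leave-one-out fits.

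The genes called higher with a WT-only peak were FOSL2, ANXA2, INHBA, WNT9A, MYO5C, TENT5A and GLIS3. FOSL2, an AP-1 subunit, had 37.6 and 17.6 CPM in KO and 10.8, 5.78 and 6.16 CPM in WT (log2 fold change 1.86 ± 0.42, SE, DESeq2 adjusted p = 0.00184), with 3 WT peaks of folds from 4.98 to 8.21. INHBA, which encodes a subunit of activin, had 4.39 and 2.56 CPM in KO and 0.24, 0.38 and 0.96 CPM in WT (2.75 ± 0.69, adjusted p = 0.00879). WNT9A, a WNT ligand, had 9.79 and 10.3 CPM in KO and 5.64, 4.57 and 4.13 CPM in WT (1.07 ± 0.27, adjusted p = 0.00879). MYO5C, an unconventional myosin of secretory cells, had 30.7 and 20.0 CPM in KO and 13.7, 9.22 and 7.66 CPM in WT (1.31 ± 0.33, adjusted p = 0.0106). ANXA2, TENT5A and GLIS3 had adjusted p-values of 0.00362, 0.011 and 0.0473. FOSL2 kept its call in 4 of the 5 leave-one-out fits, MYO5C in 3, ANXA2 and INHBA in 2, and WNT9A, TENT5A and GLIS3 in 1, and all 7 were lost without KO1 replicate 1. In the 3 high-collagen KO libraries INHBA had 137, 39.8 and 60.7 CPM, ANXA2 740, 735 and 420 CPM and TENT5A 207, 57.1 and 95.3 CPM, and which cells lack the peak in the KO list was not tested. INSYN1, an inhibitory synapse protein, was the one called lower with a WT-only peak, at 10.2 and 9.79 CPM in KO and 22.1, 18.9 and 14.5 CPM in WT (DESeq2 adjusted p = 0.0366), and it too kept its call in 1 of those fits.

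**Figure D5:**
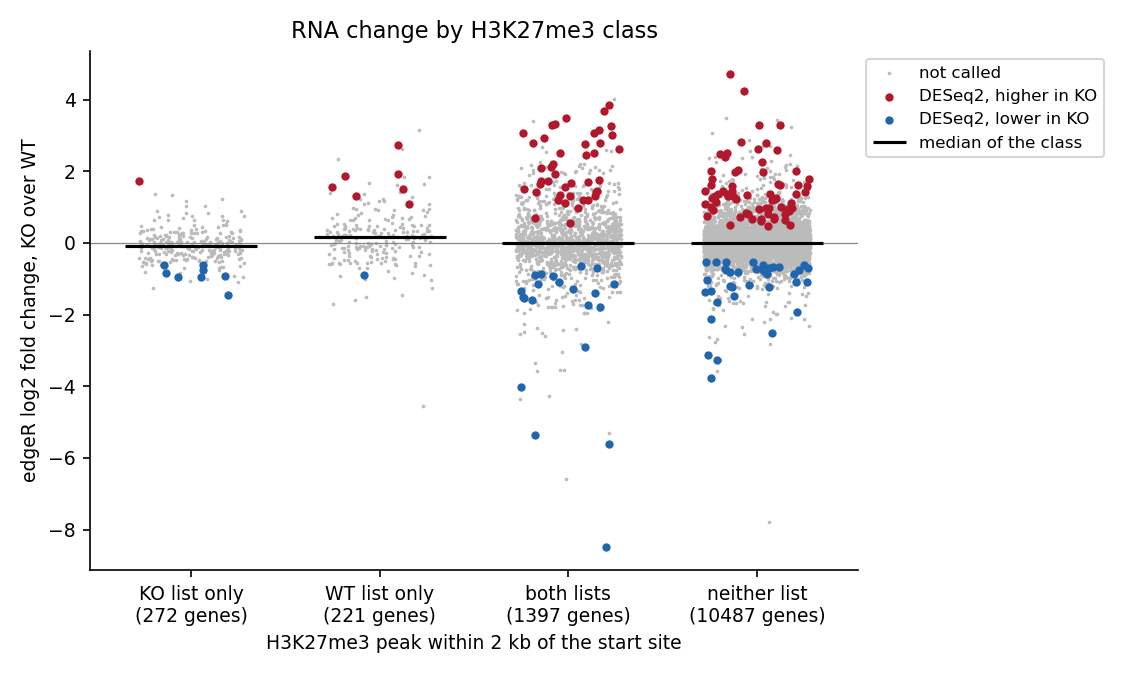
edgeR log2 fold change of KO over WT (y axis) for tested genes by H3K27me3 peak class (x axis, KO list first), with DESeq2 calls in red (higher in KO) and blue (lower in KO) and the class median as a bar. The KO-only class holds 8 lower and 1 higher calls, and the WT-only class 7 higher and 1 lower.

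H3K36me3, a mark of transcribed gene bodies, was compared over gene spans. The KO list holds 8937 peaks from 44.4 M tags and the WT list 30144 peaks from 22.5 M tags, so the KO list is the shorter one despite the larger number of tags. Of 408 tested genes with a peak in the KO list only, 7 (1.72%) were called higher and 0 lower by DESeq2, against 0.877% and 0.55% of all genes. With peaks of -log10 q of at least 5 the 7 became 1. Of 3544 with a peak in the WT list only, 17 (0.48%) were called higher and 30 (0.847%) lower.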

How the data were processed

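RNA was measured in day 40 neurons. Per the submitters' processing notes, the authors used Salmon 1.1.0 and DESeq2 1.26.0 for RNA and Bowtie2 2.4.1 for ChIP reads, with GRCh38. The deposited RNA table holds estimated counts for 60199 gene symbols. How transcripts were summed to genes is not given. Peak calling by the authors used MACS2 2.2.7.1 in narrow mode, with a q cutoff of 0.01, 1 treatment alignment a list and 1 tag kept per position, per the file headers. The deposited lists give the pileup signal, the fold ratio over control and the -log10 q-value.

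Estimated counts were rounded. Totals were 17.4 to 31.5 M a library, which limits weakly expressed genes. The planned test was edgeR 4.0.16 (R 4.3.3) with filterByExpr, TMM and the quasi-likelihood F-test, beside DESeq2 1.42.0 with default settings, both with Benjamini-Hochberg adjustment at 0.05. Since edgeR made no call, DESeq2's calls are the ones described. Separate differentiations are not stated for the replicates, and p-values therefore cover the spread among these libraries alone, which may be technical. List means use log2 CPM with a prior count of 2. The scripts were tested on simulated data. Limma 3.58.1 gave the voom fit.

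Members and gene lists were chosen with earlier results of these data known. Genes were named as the 15 in each direction with the lowest edgeR p among those not overlapping between groups and averaging at least 2 CPM, as called list members, as the most abundant member of lists described gene by gene, and as up to 6 called genes in each direction with an H3K27me3 peak in 1 list. The genes kept in every leave-one-out fit, the FGF, cilia and class I genes, and the remaining genes of the 1-list peak classes were named after their values were seen. Some genes meeting these rules are not reported here. Alternatives were other scalings, filters and tools, a robust fit, all 8 libraries, a replicate block, each library left out, and other windows and thresholds for peaks. The authors' own table of differences, which pools all KO libraries, was not used.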

Additional observations from a re-analysis of the deposited data

How the results depend on the processing

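Without a filter on low counts edgeR called 393 genes higher and 269 lower, where it had called 0, and DESeq2 called 161 and 101. edgeR also called 0 with RLE or upper-quartile scaling, a filter of 1 CPM in 2 libraries, a robust fit, limma-voom, all 8 libraries and a replicate block, and with a library left out it called 0 to 1 higher. DESeq2 on all 8 libraries, chosen after seeing the data, called 67 higher and 37 lower. With a library left out it called 19 to 230 higher and 48 to 149 lower, both lowest without KO1 replicate 1. Replicate numbers are not stated to pair the samples, and the deviations of replicates 1 and 3 correlated at 0.06. With a replicate block DESeq2 called 113 higher and 68 lower. The cause of these differences was not tested.

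Genes with a KO-only H3K27me3 peak held 2 higher calls with a 5 kb window or with 2 kb around either gene end, the second chosen after seeing the data. Those with a WT-only peak then held 11 higher and 2 lower with either gene end. With H3K36me3 peaks of -log10 q of at least 5, 1 KO-only and 10 WT-only genes were called higher.

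Directions turned in genes that were not called. DPYSL3 was 0.009998 with voom, 0.22 with the replicate block in edgeR and in DESeq2, and -0.22 to 0.20 with a library left out. VIM was -0.0117 and -0.0136 with the replicate block in edgeR and DESeq2, and -0.0835 to 0.21 with a library left out. GBX2 was -1.57 with voom, -0.91 and -1.17 with the replicate block in edgeR and DESeq2, and -4.02 to 1.65 with a library left out. TTR ranged over -0.81 to 3.79 and KDM6A over -0.0699 to 0.19 with a library left out.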
